A study of Mus musculus with 18 samples.

Results

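Lymph nodes of mice lacking Beclin 2 were compared with wild-type lymph nodes, and the comparison comprises every gene in the authors' deposited table for this contrast. That table lists 105 genes, out of 2202 genes listed in any of the 5 tables of the series, all called by the authors at an adjusted p under 0.05. The contrast used 4 of the 18 libraries: 2 of Beclin 2 knockout nodes and 2 of wild-type nodes. Both groups were labelled as strain C57BL/6, received no stimulation, and were taken for RNA without culture. The labels state neither the age of these mice nor which node was taken, and they do not tell whether each library is a different animal. P-values therefore set the difference between genotypes only against the spread between libraries, which may be technical. Messenger RNA was enriched with oligo(dT) beads and sequenced on an Illumina HiSeq. How the Becn2 allele was made was not given in the labels.

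Beclin 2 is a mammalian relative of Beclin 1, the scaffold of the lipid kinase complex that starts autophagosomes, and it also takes part in the lysosomal breakdown of some G protein-coupled receptors. A lymph node is packed mainly with B and T lymphocytes, lined by sinus macrophages and embedded in fat, and it lies close to salivary glands when taken from the neck. Neither Becn2 (GRCm38, chromosome 1:175920329-175922225) nor Becn1 is listed in any of the 5 tables. The tables therefore give no level of the targeted transcript and no check of the genotype labels.

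Each gene has 1 deposited mean of normalised read counts per genotype. These means, printed to 15 digits, still hold the whole reads of both libraries, and the reads were recovered for all 105 genes in both genotypes. Libraries are called 1 and 2 in order of depth, which is not the replicate number of the labels, and all values written as pairs follow that order. The size factors were 0.907 and 1.18 in knockout and 0.953 and 1.005 in wild type, and the total reads per library are not known from these values. The wild-type node libraries were rich in lymphocyte transcripts, with 3590 and 3267 reads of Cd4, 4869 and 4504 of Cd8a and 17112 and 18974 of the B cell receptor subunit Cd79a. Salivary gland transcripts were also present and were unequal between libraries: 11 of the 33 genes of a salivary list had reads known in all 4 libraries, and their summed normalised reads were 537 and 7508 in knockout and 29277 and 10889 in wild type. Reads in all 4 libraries are known only for genes listed for this contrast or in both comparisons of lymphoma with these nodes. Sums over such genes therefore cover a selected part of a list.

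Of about 22105 genes tested, 105 were called, which is 0.475%. Higher in knockout were 40 genes (0.181% of those tested) and lower were 65 (0.294%). Immunoglobulin segments and constant regions made up 14 of the higher and 20 of the lower genes, predicted or unnamed genes and pseudogenes another 4 and 5, and other named genes 22 and 40. The median log2 fold change, knockout over wild type, was 2.72 among higher genes and -2.004 among lower genes with reads in both genotypes. Falls were often small: 16 lower genes were less than 2-fold apart, against 1 higher gene. In each of the 105 genes both knockout libraries lay outside the range of the wild-type libraries, a property that the call itself favours.

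**Figure D1:**
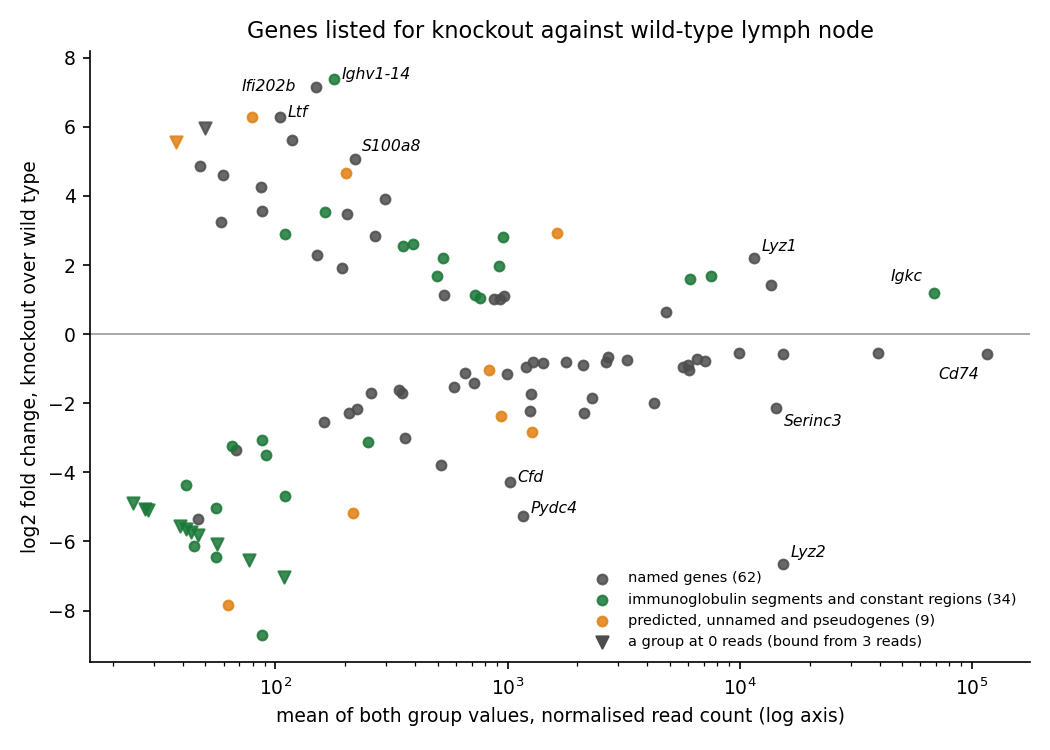
Each point is 1 of the 105 listed genes, with the mean of both group values (normalised read count, log axis) on the x axis and the log2 fold change (knockout over wild type, computed from the deposited means) on the y axis. Triangles mark genes with 0 reads in both libraries of 1 genotype, placed at the bound that 3 reads allow. Large falls at low level are mostly immunoglobulin segments, and Lyz2 lies far below the other abundant genes.

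Which transcripts of myeloid cells differ in the knockout node was seen most clearly in neutrophil genes. All 8 called genes of a list of 33 neutrophil granule and alarmin genes rose in the knockout node, with a median log2 fold change of 4.65 against -0.88 over all 105 genes, genes at 0 entering at their bound. The other 25 genes of the list are not in the table. In whole tissue, more cells of a type and more RNA per cell cannot be told apart. Over the 10 genes of the list with reads known in all 4 libraries, summed normalised reads were 5423 and 4438 in knockout against 2417 and 1751 in wild type. These 10 include the 8 called genes, so the sums largely repeat the calls. Lrg1, which was not called, made up most of the wild-type sum, and without it the sums were 2293 and 2295 in knockout against 273 and 245 in wild type.

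The alarmins came first by adjusted p. S100a8, which pairs with S100a9 as calprotectin, had 395 and 493 reads in knockout libraries 1 and 2 and 12 and 13 in wild-type libraries 1 and 2 (log2 fold change 5.06, adjusted p = 1.05e-18 in the authors' deposited table). S100a9 had 510 and 648 reads in knockout against 45 and 26 in wild type (3.92, adjusted p = 2.70e-17 in the authors' deposited table). Both genes were uniformly high in knockout, and the lowest knockout library held over 10 times the highest wild-type library. The iron-binding granule proteins followed. Ltf, lactoferrin, had 120 and 332 reads in knockout and 5 and 0 in wild type (6.30). Lcn2, which captures bacterial siderophores, had 142 and 206 reads in knockout against 9 and 8 in wild type (4.25). Ltf was uneven in knockout, and the size of its fold rests on 5 reads of wild-type library 1, whereas Lcn2 was even in both genotypes. Ltf is also on the salivary list, of which it is the only called gene, and the other 10 genes of the salivary sum above were lower on average in knockout. Both Ltf and that sum were lower in knockout library 1 than in knockout library 2, and the part of salivary tissue in the Ltf reads was not tested. Ngp, neutrophilic granule protein, had 184 and 306 reads in knockout and 9 and 0 in wild type (5.61). Without wild-type library 1 the wild-type level of Ltf and Ngp is 0 reads, and no finite fold remains. Camp, the antimicrobial peptide cathelicidin, had 100 and 120 reads in knockout against 5 and 17 in wild type (3.26, adjusted p = 0.0498 in the authors' deposited table), and its fold change ran from 2.65 without wild-type library 1 to 4.33 without wild-type library 2. Camp and Hhex shared the largest adjusted p of the table. The chitinase-like protein gene Chil3 had 163 and 171 reads in knockout and 10 and 17 in wild type (3.56). Retnlg, a resistin-like secreted protein of neutrophils, had 93 and 114 reads in knockout against 0 and 0 in wild type, at least 63.1-fold higher when 3 reads over the wild-type group are taken as the floor. Intervals and floors on these reads cover counting error only.

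The promoters of these genes are shown because the genes moved together, and C/EBP proteins, above all C/EBP epsilon, are known to drive granule genes in maturing neutrophils. Windows of 250 bases before to 50 after the start came from RefSeq (GRCm38.p6) and were found for 48 of the 105 genes. The C/EBP letters searched on both strands, TTGCNNAA, occur in 10.8% of 32851 windows of the whole table. They occur in 5 of the 8 neutrophil genes, Ltf, Ngp, Lcn2, S100a9 and Retnlg, and in 11 of the 48 listed genes with a window. The percentage is of windows, while these counts are of genes with a match in any window. Each of the 8 neutrophil genes has 1 window, and some other listed genes have more. A match is only a description of the letters, and no binding was measured. In the windows of Ltf (chr9:111019042-111019341, plus strand), Ngp (chr9:110419558-110419857, plus strand) and S100a9 (chr3:90695672-90695971, minus strand) the matches are in capitals.
Ltf: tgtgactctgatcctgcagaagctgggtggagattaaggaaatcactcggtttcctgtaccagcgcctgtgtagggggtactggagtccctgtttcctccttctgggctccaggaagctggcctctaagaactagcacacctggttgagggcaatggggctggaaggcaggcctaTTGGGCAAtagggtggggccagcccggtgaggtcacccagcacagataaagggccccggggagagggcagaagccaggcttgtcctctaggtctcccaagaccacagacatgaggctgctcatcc
Ngp: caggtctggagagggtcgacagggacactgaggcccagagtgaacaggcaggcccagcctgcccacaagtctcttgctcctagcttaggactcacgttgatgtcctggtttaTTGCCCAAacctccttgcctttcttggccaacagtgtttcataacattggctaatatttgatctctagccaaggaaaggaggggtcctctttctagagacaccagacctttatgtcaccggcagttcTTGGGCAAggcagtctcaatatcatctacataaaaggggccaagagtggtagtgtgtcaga
S100a9: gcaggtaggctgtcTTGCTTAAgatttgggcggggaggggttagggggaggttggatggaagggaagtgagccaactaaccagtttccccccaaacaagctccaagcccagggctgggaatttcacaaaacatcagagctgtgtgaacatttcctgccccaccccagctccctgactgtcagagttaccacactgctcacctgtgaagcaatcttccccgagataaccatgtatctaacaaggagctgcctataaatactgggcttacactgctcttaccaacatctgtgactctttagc

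Of a list of 33 monocyte and macrophage genes, 4 were called, 3 higher and 1 lower. Fcgr4, an activating receptor for IgG2 antibodies on monocytes and macrophages, had 349 and 426 reads in knockout and 51 and 13 in wild type (3.49), and reached 4.85 without wild-type library 1 and 2.80 without wild-type library 2. Siglec1, the sialoadhesin of sinus macrophages, had 5402 and 6884 reads in knockout against 3787 and 3520 in wild type (0.65), the only higher gene less than 2-fold apart. Cd300e, an activating receptor of monocytes outside the list, had 97 and 145 reads in knockout and 9 and 0 in wild type (4.60), and is at 0 reads in wild type without wild-type library 1. Fcgr4 and Siglec1 thus differed in size by far, and the fold of Fcgr4 depended on which wild-type library was kept. Summed over the 9 genes of the list with reads known in all libraries, which include the 4 called ones, the level was 45957 and 39383 normalised reads in knockout against 49746 and 53377 in wild type. Without Lyz2 the order turned, with 45459 and 39281 in knockout against 19611 and 22740 in wild type. These sums still hold the rising lysozyme gene Lyz1, with 18264 and 19372 normalised reads in knockout against 3637 and 4589 in wild type. The turn therefore does not describe the list as a whole. Of the 9 genes, 6 had the higher mean in knockout and 3 the lower.

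The lysozyme genes moved in opposite directions. Lyz2, the lysozyme of macrophages and neutrophils, had 451 and 121 reads in knockout against 28705 and 30787 in wild type (-6.66, adjusted p = 1.22e-273 in the authors' deposited table). Lyz1, the lysozyme of intestinal Paneth cells, had 16569 and 22916 reads in knockout and 3464 and 4612 in wild type (2.19, adjusted p = 3.41e-42 in the authors' deposited table). These were the smallest adjusted p-values for a fall and for a rise. The fold change of Lyz2 was -8.21 without knockout library 1 and -5.93 without knockout library 2, because its few knockout reads were unequal, while the Lyz1 libraries of a genotype lay close together. Both genes sit side by side on chromosome 10 (GRCm38, Lyz2 at 117277331-117282321 and Lyz1 at 117287797-117292868). In 50-base words, 16.1% of the Lyz1 transcript and 15.4% of the Lyz2 transcript occur in the other gene, so part of their reads could be placed on either. The same opposition was called in other cells of the same genotypes, with Lyz2 at -6.55 and Lyz1 at 3.93 in splenic B cells and -5.61 and 2.89 in splenic T cells.

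The promoter windows of the pair are printed because 2 such similar copies changed in opposite directions. They were identical at 249 of 298 aligned bases (83.6%), with 49 substitutions. The same C/EBP letters occur in the window of Lyz1 and not in that of Lyz2. Capitals mark the bases that differ in the alignment of Lyz1 (chr10:117292819-117293118, minus strand) with Lyz2 (chr10:117282223-117282522, minus strand).
Lyz1: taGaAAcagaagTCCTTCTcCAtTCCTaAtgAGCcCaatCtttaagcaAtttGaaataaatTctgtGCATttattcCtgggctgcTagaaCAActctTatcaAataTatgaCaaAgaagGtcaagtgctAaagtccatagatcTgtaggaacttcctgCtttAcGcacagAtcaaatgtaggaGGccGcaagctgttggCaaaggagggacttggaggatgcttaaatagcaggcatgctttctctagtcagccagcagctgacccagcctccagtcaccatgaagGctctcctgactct
Lyz2: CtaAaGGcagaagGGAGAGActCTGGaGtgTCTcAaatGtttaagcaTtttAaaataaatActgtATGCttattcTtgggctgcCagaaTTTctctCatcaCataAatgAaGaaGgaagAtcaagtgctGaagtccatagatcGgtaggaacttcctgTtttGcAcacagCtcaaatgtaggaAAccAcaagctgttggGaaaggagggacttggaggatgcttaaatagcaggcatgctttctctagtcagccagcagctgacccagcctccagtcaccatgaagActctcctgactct

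**Figure D2:**
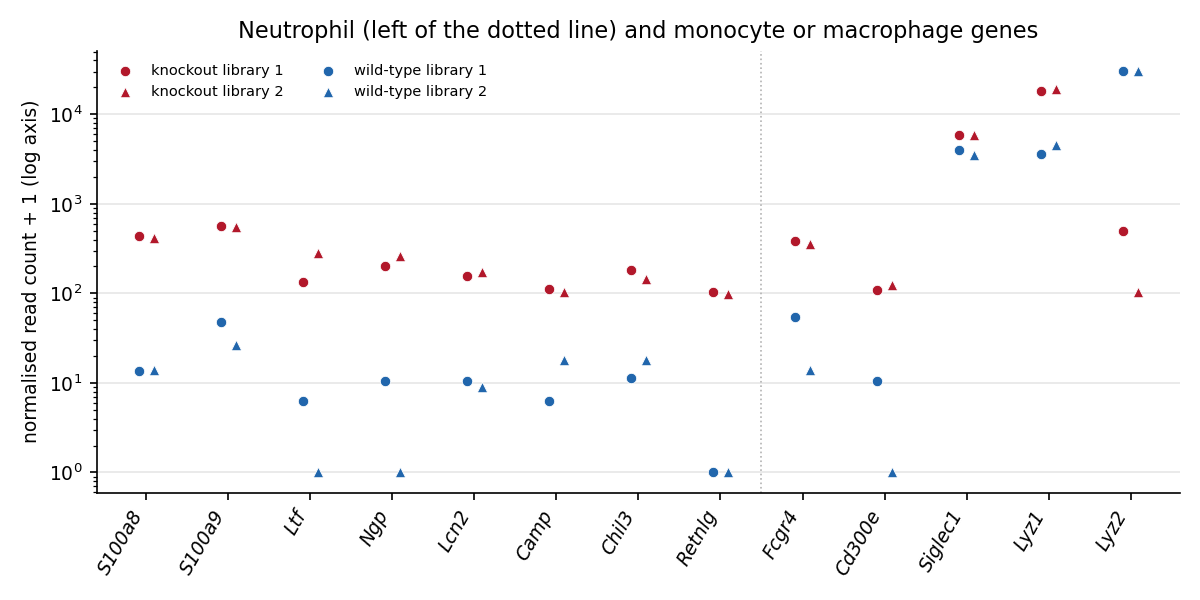
Normalised read counts plus 1 (log axis) of 8 neutrophil genes and 5 monocyte or macrophage genes in each of the 4 node libraries. Red symbols are knockout, blue symbols wild type, circles library 1 and triangles library 2. All knockout symbols lie above all wild-type symbols except for Lyz2, where the order is turned round.

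The called transcripts of fat fell in the knockout node, with 1 exception. Of a list of 30 adipocyte genes 5 were called, 4 lower and 1 higher, with a median of -1.86. The rest of the list is not listed for this contrast. Cfd, the adipokine and complement protease adipsin, had 91 and 120 reads in knockout against 1601 and 2223 in wild type (-4.27, adjusted p = 3.23e-19 in the authors' deposited table). Car3, a carbonic anhydrase abundant in fat, had 1001 and 1046 reads in knockout and 3247 and 3823 in wild type (-1.86). Both separated the genotypes with little spread within either. Pck1, which makes phosphoenolpyruvate for glycerol synthesis, had 41 and 137 reads in knockout against 684 and 569 in wild type (-3.00), and was at -2.47 without knockout library 1 and -3.83 without knockout library 2. Cidec, a lipid droplet protein, had 151 and 201 reads in knockout and 462 and 551 in wild type (-1.62). The exception was the hormone gene Lep, leptin, which had 228 and 297 reads in knockout against 13 and 90 in wild type (2.28). Its wild-type libraries were far apart, and its fold change was 1.49 without wild-type library 1 and 4.20 without wild-type library 2. Of the list, 7 genes had reads known in all 4 libraries, and their sum was 3031 and 2702 normalised reads in knockout against 8005 and 9498 in wild type. These 7 include the 5 called genes, so the sum largely repeats the calls. Adipoq, the defining adipokine adiponectin, was not listed for this contrast, and its reads, known from the lymphoma tables, were 197 and 262 in knockout and 402 and 692 in wild type.

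A few other called genes of metabolism, grouped here after their values were seen, are not on that list. Cyp2e1, a cytochrome P450, had 71 and 71 reads in knockout and 707 and 1186 in wild type (-3.80). Pcx, pyruvate carboxylase, was at -1.71, and Me1, the malic enzyme that supplies reducing power for fatty acid synthesis, was at -1.69. Aldh1a2, which makes retinoic acid, had 59 and 35 reads in knockout against 204 and 340 in wild type (-2.55), and was at -3.22 without knockout library 1. Elovl7, a fatty acid elongase, was higher, with 304 and 328 reads in knockout and 77 and 83 in wild type (1.91).

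In the unnamed gene 2310057J18Rik the libraries stood in the same order as in salivary transcripts, which was noticed after the values were seen. It had 29 and 680 reads in knockout against 1681 and 1371 in wild type (-2.37), and was at -1.44 without knockout library 1 and -5.61 without knockout library 2. The salivary protein gene Bpifa2, not listed for this contrast, had 196 and 5026 reads in knockout and 17681 and 5513 in wild type. Pip, another salivary protein gene, had 0 and 288 reads against 661 and 537. In all 3 genes knockout library 1 was lowest and wild-type library 1 highest. In the lymphoma tables, which share these node libraries, 2310057J18Rik was at 6.45 in lymphoma over knockout node and 4.07 over wild-type node. The part of salivary tissue in the fall of this gene was not tested.

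**Figure D3:**
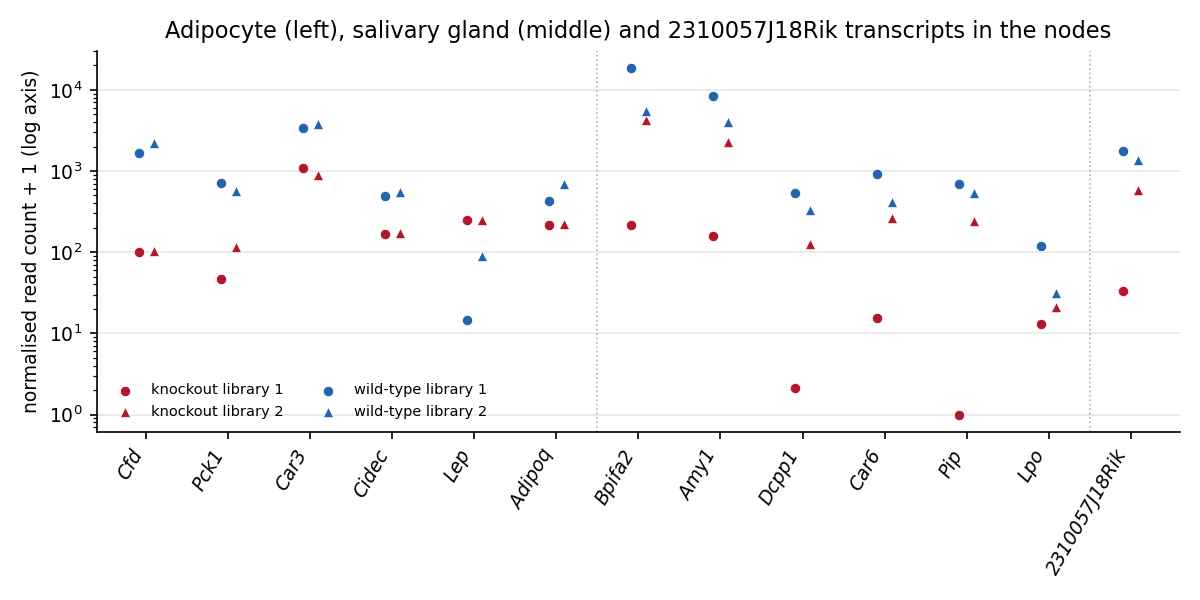
Normalised read counts plus 1 (log axis) of 6 adipocyte genes, 6 salivary gland genes and 2310057J18Rik in each node library, with red for knockout, blue for wild type, circles for library 1 and triangles for library 2. Adipoq and the salivary genes are not listed for this contrast, and their values were normalised with the size factors of the node table. The 2 knockout libraries agree in Cfd, Car3 and Cidec but are far apart in every salivary gene but Lpo.

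The called genes of B cells and of antigen presentation fell by small amounts. Of 12 class II genes 3 were called, all lower (median -0.56), and of 31 B cell identity genes 4 were called, all lower (median -0.67). Cd74, the invariant chain that guides class II molecules to endosomes, had 80931 and 116406 reads in knockout and 129624 and 141412 in wild type (-0.56, adjusted p = 0.0158 in the authors' deposited table). H2-Ab1, the beta chain of the class II molecule I-A, had 32105 and 33863 reads in knockout against 43108 and 48644 in wild type (-0.55). H2-DMb2, a chain of the peptide-loading molecule DM, had 4015 and 6556 reads in knockout and 7181 and 8766 in wild type (-0.71). The groups were apart by less than 2-fold in all 3, at levels high enough that counting error was small. Fcer2a, the low-affinity IgE receptor CD23 of follicular B cells, had 4151 and 4524 reads in knockout against 6892 and 8294 in wild type (-0.88, adjusted p = 6.39e-06 in the authors' deposited table). Pax5, the transcription factor that holds B cell identity, had 2217 and 2873 reads in knockout and 3823 and 4194 in wild type (-0.75). Cd79a, a signalling subunit of the B cell receptor, had 11095 and 14588 reads in knockout against 17112 and 18974 in wild type (-0.59). As in every lower gene listed, both knockout libraries lay under both wild-type libraries in these 3, which the call itself favours. Ltb, the lymphotoxin beta that B cells use to organise follicles, had 7351 and 9402 reads in knockout and 11170 and 11985 in wild type (-0.56). Over the 7 B cell genes with reads known in all libraries, which include the 4 called ones, the sum was 40230 and 39080 normalised reads in knockout against 55729 and 58357 in wild type. Of the 4 called genes only Fcer2a was also called in splenic B cells, at -0.93. Fscn1, the actin-bundling protein of mature dendritic cells, had 5266 and 5473 reads in knockout against 8072 and 9510 in wild type (-0.78). It was the only 1 called of 22 dendritic cell genes. Of the 5 with reads known in all libraries, 2 had the higher mean in knockout and 3 the lower. The T cell identity and germinal centre lists held 0 genes called with DESeq, and how many had an unadjusted p under 0.05 is not known, because only called genes are listed.

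Antibody transcripts moved in both directions. All 8 called kappa variable segments and all 3 called constant regions were higher in the knockout node, while 19 of 22 called heavy chain variable segments and the joining segment Ighj1 were lower. Igkc, the kappa constant region, had 85764 and 115408 reads in knockout and 37745 and 44300 in wild type (1.20, adjusted p = 1.89e-14 in the authors' deposited table). Ighg2b, the IgG2b constant region, had 10851 and 12878 reads in knockout against 3824 and 3094 in wild type (1.69, adjusted p = 1.68e-23 in the authors' deposited table). Ighg2c, the IgG2c constant region, had 7439 and 11937 reads in knockout and 4321 and 1507 in wild type (1.60, adjusted p = 0.0415 in the authors' deposited table), and was at 2.61 without wild-type library 1 and 1.01 without wild-type library 2. Igkc and Ighg2b were thus even within a genotype, and Ighg2c was not. Igj, now Jchain, which joins secreted IgM and IgA into polymers, had 20207 and 20651 reads in knockout against 6093 and 8412 in wild type (1.43). Of 26 plasma cell genes only Igj was called. The 15 of them with reads known in all libraries summed to 63328 and 57085 normalised reads in knockout against 39318 and 40601 in wild type, and all 15 had the higher mean in knockout. Apart from Igj, these 15 have known reads only because they were called in both lymphoma comparisons, where all were higher in lymphoma. The direction of the rest of the 26 in the node is not known. Without Igj the sums lay closer, at 41054 and 39628 in knockout against 32922 and 32231 in wild type.

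The kappa segments rose between 1.04 and 2.82 (log2). Igkv5-39 had 1373 and 2168 reads in knockout and 256 and 205 in wild type, the smallest adjusted p of the rising kappa segments (6.01e-23 in the authors' deposited table). Igkv3-5 had 612 and 796 reads in knockout against 130 and 85 in wild type (2.61). Igkv3-12 had 792 and 1015 reads in knockout and 202 and 162 in wild type (2.21). In these 3 segments every knockout library was over 3-fold above both wild-type libraries. Igkv3-4 had 1113 and 2012 reads in knockout against 246 and 494 in wild type (1.97). Igkv14-126 had 457 and 832 reads in knockout and 110 and 90 in wild type (2.56). Igkv3-2 had 558 and 1068 reads in knockout against 265 and 195 in wild type (1.68). The knockout libraries of these 3 were less even than those of the first 3. Igkv1-135 had 904 and 1165 reads in knockout and 394 and 498 in wild type (1.12). Igkv6-23 had 1020 and 1100 reads in knockout against 416 and 566 in wild type (1.04). As in every higher gene listed, no knockout library of the 8 fell under a wild-type library, which the call itself favours. The median of the 8 was 2.09. Reads can be divided among kappa copies: 58.4% of the 50-base words of Igkv3-12 and 51.4% of those of Igkv3-5 also occur in other genes.

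Among heavy chain variable segments 3 rose. Ighv1-14, now Ighv1-16, had 351 and 380 reads in knockout and 4 and 0 in wild type (7.40, adjusted p = 3.40e-22 in the authors' deposited table), the largest rise of the table with reads in both genotypes. Ighv2-9 had 275 and 357 reads in knockout against 47 and 3 in wild type (3.53). Ighv1-4 had 148 and 267 reads in knockout and 44 and 6 in wild type (2.90). The wild-type reads of all 3 came mostly from wild-type library 1: without it, Ighv1-14 was at 0 reads in wild type, Ighv2-9 at 6.66 and Ighv1-4 at 5.03, and without wild-type library 2 the last 2 were at 2.62 and 2.07.

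Many of the lower heavy chain segments had no knockout reads. In 10 of the 19 both knockout libraries had 0 reads, while the wild-type means ran from 48.8 to 217.9 normalised reads, so that they were from at least 29.5-fold to at least 131.8-fold lower. Ighv1-64 had 0 and 0 reads in knockout against 252 and 172 in wild type (adjusted p = 8.09e-14 in the authors' deposited table). Ighv1-80 had 0 and 0 reads in knockout and 137 and 165 in wild type (adjusted p = 7.66e-11 in the authors' deposited table). Ighv1-22 had 0 and 0 reads in knockout against 104 and 116 in wild type. The wild-type libraries of these 3 were less than 2-fold apart. The others at 0 in knockout held fewer wild-type reads. For Ighv1-52 these were 90 and 91, and for Ighv1-39 they were 87 and 83. Ighv1-76 had 67 and 95 wild-type reads, and Ighv1-19 had 75 and 77. The lowest levels of this set were those of Ighv5-16 with 60 and 50 reads, Ighv1-78 with 58 and 49 and Ighv3-1 with 57 and 38. In each of these the wild-type libraries were less than 2-fold apart.

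A few reads were left in knockout for the remaining 9. Ighv1-50 had 0 and 1 reads in knockout and 196 and 146 in wild type, which is 365.2-fold lower in knockout (95% exact interval for counting error 65.1 to 14466). Ighv1-81 had 0 and 3 reads in knockout against 100 and 116 in wild type (76.9-fold, 25.96 to 375.7). Ighv14-4 had 0 and 3 reads in knockout and 84 and 89 in wild type (61.6-fold, 20.7 to 301.5). These intervals are wide because 1 to 3 reads decide them. Ighv14-2 had 6 and 0 reads in knockout against 104 and 106 in wild type (-5.02). Ighv1-82 had 8 and 9 reads in knockout and 237 and 176 in wild type (-4.69). Ighv1-59 had 0 and 9 reads in knockout against 97 and 55 in wild type (-4.36). The last and Ighv14-2 had knockout reads in 1 library only, and are at 0 there without it. The segments with the most reads left in knockout were Ighv1-26, Ighv10-3 and Ighv5-17. Ighv1-26 had 39 and 72 reads in knockout and 409 and 469 in wild type (-3.11). Ighv10-3 had 14 and 26 reads in knockout against 186 and 118 in wild type (-3.06). Ighv5-17 had 7 and 26 reads in knockout and 119 and 210 in wild type (-3.49), and was at -2.93 without knockout library 1 and -4.44 without knockout library 2. The joining segment Ighj1 had 14 and 11 reads in knockout against 126 and 103 in wild type (-3.25). Higher and lower segments lay interspersed along the locus, with lower ones on both sides of Ighv1-4, Ighv1-14 and Ighv2-9. Near-identical copies share reads here too: 67.2% of the words of Ighv1-52 and 49.0% of those of both Ighv1-14 and Ighv1-26 occur in other genes.

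**Figure D4:**
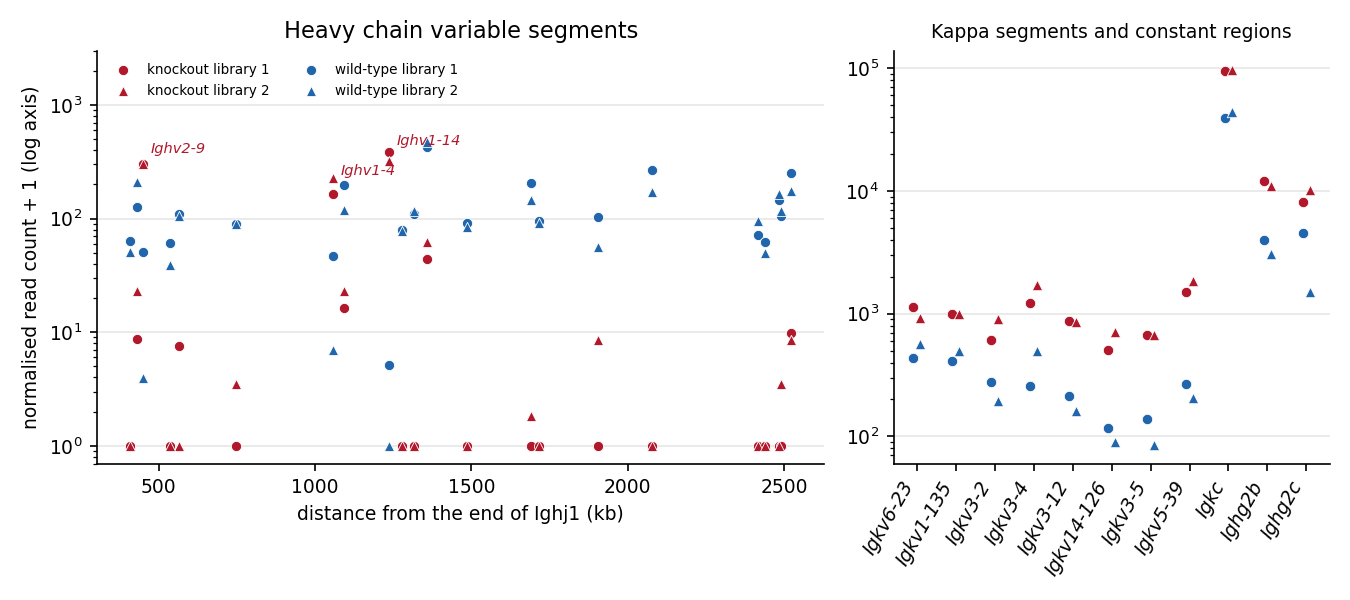
Left, normalised read counts plus 1 (log axis) of the 22 called heavy chain variable segments against their distance from the end of Ighj1 in kb. Right, the 8 called kappa variable segments and 3 constant regions. Red is knockout and blue is wild type, circles are library 1 and triangles library 2. At the left most red symbols lie at 1, that is at 0 reads, apart from the 3 named segments, and at the right every red symbol lies above the blue ones of its gene.

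Whether the same genes were called in other cells of these genotypes was asked in splenic B cells and T cells from mice of 8 weeks, which are other libraries. In B cells 1.24% of the genes tested were called (0.493% higher, 0.751% lower) and in T cells 2.35% (1.67% higher, 0.676% lower). Of the 105 node genes 49 were called in B cells, 46.7% of the node list and 16.4% of the B cell list, and 48 of them in the same direction, 9 higher and 39 lower. In T cells 51 were called, 48.6% of the node list and 8.69% of the T cell list, 50 of them in the same direction, 21 higher and 29 lower. In all 3 tissues 30 genes were called, all in 1 direction per gene, 5 higher and 25 lower. Of these 30, 13 were immunoglobulin segments. Of the 14 higher segments, 5 were called higher in B cells and 7 in T cells. Of the 20 lower segments, 19 were called lower in B cells and 11 in T cells. Of the 45 lower genes other than segments, 20 were called lower in B cells and 18 in T cells. Of the higher genes other than segments, 26 in number, B cells shared 4 calls and T cells 14. In neither cell type were 35 node genes called. These hold all 5 adipocyte genes, all 3 class II genes and 5 of the 8 neutrophil genes. The other neutrophil genes, S100a8 (2.03), S100a9 (2.51) and Ngp (2.91), were higher in T cell preparations, whose purity is not known, as were Fcgr4 (2.25), Siglec1 (2.47) and Igj (1.97).

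**Figure D5:**
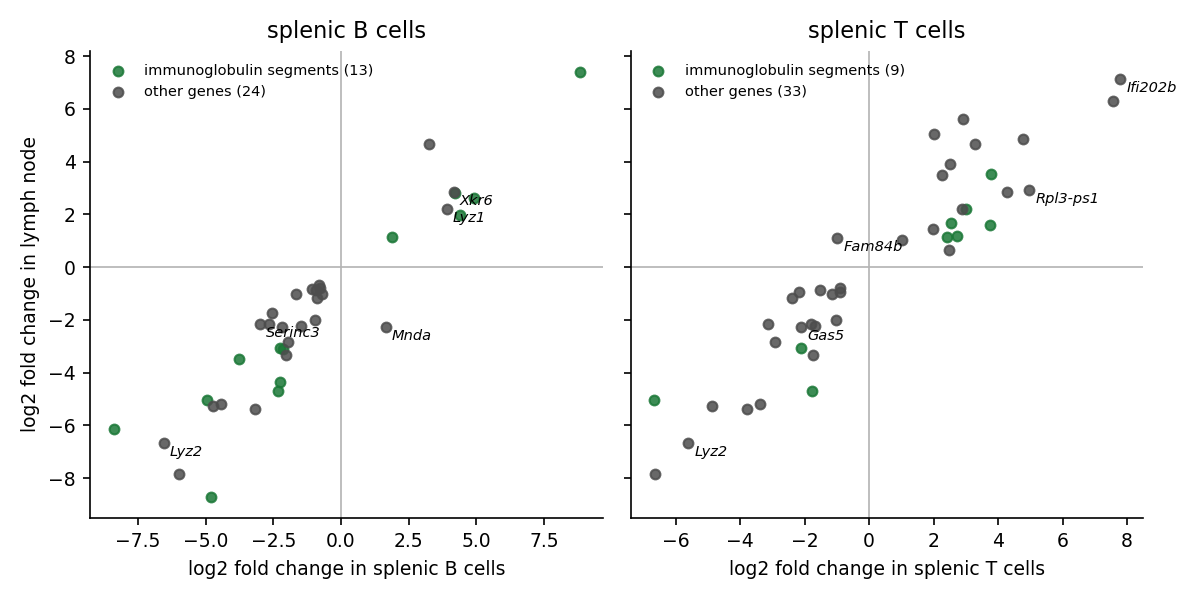
Log2 fold change, knockout over wild type, in lymph node (y axis) against that in splenic B cells (left, x axis) and splenic T cells (right, x axis), for node genes called in both and with reads in both genotypes. Green points are immunoglobulin segments and grey points other genes. All points lie in the lower left or upper right field except Mnda on the left and Fam84b on the right.

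The genes called in all 3 tissues outside the antibody loci were 17. Serinc3, a serine incorporator of cell membranes, had 4752 and 6275 reads in knockout and 21735 and 24112 in wild type (-2.15, adjusted p = 1.18e-41 in the authors' deposited table), and was at -2.98 in B cells and -1.80 in T cells. Gas5, the host gene of several small nucleolar RNAs, had 812 and 663 reads in knockout against 3224 and 3673 in wild type (-2.27, adjusted p = 1.72e-28 in the authors' deposited table), with -2.20 and -2.11 in B and T cells. The libraries of a genotype lay closer together for Serinc3 than for Gas5. Xkr6, of the XK family of membrane proteins, had 497 and 470 reads in knockout and 72 and 57 in wild type (2.84), and was at 4.18 and 4.27. Unc5a, a netrin receptor, had 4 and 0 reads in knockout against 82 and 96 in wild type (-5.36), with -3.19 and -3.81. Klra1, the natural killer receptor Ly49A, had 22 and 0 reads in knockout and 88 and 155 in wild type (-3.35), with -2.05 and -1.74. Unc5a and Klra1 had reads in 1 knockout library only, so without knockout library 1 they are at 0 there. F2rl1, the protease-activated receptor PAR2, had 57 and 119 reads in knockout against 395 and 324 in wild type (-2.17), with -2.68 and -3.14. Rnf144a, a ubiquitin ligase, had 542 and 756 reads in knockout and 1426 and 1262 in wild type (-1.15), with -0.90 and -2.39. Epsti1, an interferon-response gene, had 4287 and 3739 reads in knockout against 8011 and 7808 in wild type (-1.04), with -0.70 and -1.15. Of the 17 genes Epsti1 and Rnf144a differed least in the node. The unnamed gene BC147527 had 11 and 13 reads in knockout and 417 and 404 in wild type (-5.18), with -4.42 and -3.39. The cDNA 2610507I01Rik had 1 and 0 reads in knockout against 98 and 148 in wild type, which is 262.7-fold lower in knockout (95% exact interval for counting error 46.7 to 10417), and was at -6.00 and -6.65. Adding 1 to both of its node means turned a log2 fold change of -7.83 into -6.34. The remaining ones are the lysozyme pair, Gm13456, and 4 genes of the PYHIN family.

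PYHIN genes, a cluster on chromosome 1 that encodes interferon-inducible DNA sensors such as AIM2 and the IFI200 proteins, moved in both directions. Of 18 genes on the PYHIN list 5 were called, 1 higher and 4 lower, with a median of -2.22. Ifi202b had 367 and 224 reads in knockout and 4 and 0 in wild type (7.14), and was at 7.79 in T cells. Pydc4, now Ifi213, had 54 and 69 reads in knockout against 2916 and 1476 in wild type (-5.26), and was at -4.64 without wild-type library 1. Pyhin1, now Ifi209, had 1661 and 1858 reads in knockout and 6958 and 6368 in wild type (-2.004, adjusted p = 3.33e-26 in the authors' deposited table). The size of the rise of Ifi202b rests on 4 reads of wild-type library 1, and without it wild type is at 0, whereas Pyhin1 was even in both genotypes. Pydc3, now Ifi208, had 303 and 652 reads in knockout against 2369 and 1653 in wild type (-2.22). Mnda, now Ifi211, had 71 and 76 reads in knockout and 327 and 348 in wild type (-2.27), but 72.9% of the words of its transcript occur in other genes, Ifi205 above all. A further gene of the cluster outside the list, Gm4955 or Ifi206, had 260 and 396 reads in knockout against 2557 and 1794 in wild type (-2.85). Pydc4 was at -4.75 in B cells and -4.87 in T cells, Pyhin1 at -0.95 and -1.03, Pydc3 at -1.46 and -1.68 and Gm4955 at -1.96 and -2.91. Mnda went against this in B cells, where it was higher (1.66). On the chromosome (GRCm38) these genes run from Gm4955 at 173468485-173491041 to Ifi202b at 173962568-173982744, and lie between 2429288 and 1937585 bases from Becn2. Outside the cluster, Fcgr4 and Gas5 are also on chromosome 1, at 4890568 and 14881790 bases from Becn2. Of 30 interferon-stimulated genes on another list, which shares Ifi202b with the PYHIN list, only Ifi202b was called. The interferon-response gene Epsti1, called lower as given above, is not on that list.

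A list of 18 transcripts that are known to differ among mouse strains or substrains held 5 called genes, Serinc3, Klra1, Ifi202b, Ide and Erdr1, 1 higher and 4 lower. Their median was the value of Erdr1, -1.41 with all libraries and -0.89 without knockout library 1. Without knockout library 2 it was the value of Serinc3, -2.16. With each library left out, Serinc3 ran only from -2.19 to -2.11 and Ide from -0.95 to -0.68. Klra1 has no finite value without knockout library 1, nor has Ifi202b without wild-type library 1. Erdr1, which lies in the pseudoautosomal region and shares 60.3% of its words with the copy Gm21887, had 204 and 663 reads in knockout and 990 and 1046 in wild type (-1.41), at -0.89 without knockout library 1 and -2.21 without knockout library 2. Ide, the insulin-degrading enzyme, had 1067 and 1683 reads in knockout against 2353 and 2088 in wild type (-0.81) and was at -0.89 in T cells. What part of the differences between genotypes comes from the genetic background of the mice was not tested.

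Several listed genes are neighbours. Pkig, an inhibitor of protein kinase A, follows Serinc3 on chromosome 2 (163658386-163726158 after 163623272-163645131), and had 510 and 713 reads in knockout and 1626 and 2194 in wild type (-1.74, and -2.55 in B cells). F2r, the thrombin receptor PAR1, lies beside F2rl1 on chromosome 13 and changed the other way, with 1179 and 1570 reads in knockout against 553 and 656 in wild type (1.09). Hhex, a homeobox transcription factor, lies near Ide on chromosome 19 and had 741 and 1257 reads in knockout and 1579 and 1643 in wild type (-0.81, and -0.79 in B cells). Apobec3, a cytidine deaminase that restricts retroviruses, had 3424 and 4773 reads in knockout against 7188 and 7529 in wild type (-0.95, and -2.18 in T cells). Its neighbour on chromosome 15, the Polycomb protein gene Cbx7, had 1283 and 1831 reads in knockout and 2501 and 2844 in wild type (-0.88, and -1.51 in T cells). In 3 of these 4 pairs both genes fell, and of all 105 listed genes 65 were lower. The 4 pairs were picked from the listed genes and leave out others, such as the opposed lysozyme pair. The strand setting of the authors' counting was not given in the sources used here, so reads of overlapping genes on opposite strands cannot be told apart.

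Of the called pseudogenes, predicted genes and unnamed cDNAs, 4 were higher and 5 lower, and 3 of the higher ones share sequence with protein-coding genes. Rpl3-ps1 had 2707 and 3297 reads in knockout against 322 and 427 in wild type (2.92, adjusted p = 5.84e-38 in the authors' deposited table), and 95.7% of its 50-base words occur elsewhere, 91.4% in the ribosomal protein gene Rpl3. It was at 4.96 in T cells. Gm13456, which shares words with the elongation factor gene Eef1a1, had 322 and 494 reads in knockout and 14 and 16 in wild type (4.66), and was at 3.23 and 3.28 in B and T cells. Gm6166 had 152 and 171 reads in knockout against 0 and 4 in wild type (6.29), is at 0 in wild type without wild-type library 2, and was at 7.58 in T cells. It shares 51.1% of its words with Fabp5, a fatty acid-binding protein gene that itself fell, with 463 and 377 reads in knockout and 856 and 899 in wild type (-1.11). The unnamed cDNA 4930597A21Rik had 92 and 56 reads in knockout against 0 and 0 in wild type, at least 47.2-fold higher, and 5.35 in B cells. For the 9 listed genes that share at least 50% of their words, the level of the single copy is uncertain.

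The other genes belong to no list with several called members. Kcnf1, a potassium channel subunit, had 95 and 93 reads in knockout and 6 and 0 in wild type (4.86, and 4.77 in T cells). Dok2, an adaptor that dampens receptor signalling in blood cells, had 1161 and 1434 reads in knockout against 525 and 684 in wild type (1.02, and 1.01 in T cells). Fam84b had 650 and 880 reads in knockout and 297 and 362 in wild type (1.12), but was lower in T cells (-0.99). Dsg2, a desmosomal cadherin, was at 1.003. Kcnf1 was low and the others of these were moderately abundant. Among lower genes, Esd, esterase D, had 796 and 913 reads in knockout against 1390 and 1716 in wild type (-0.94, and -0.91 in T cells). Sdc4, the heparan sulphate proteoglycan syndecan 4, had 960 and 1180 reads in knockout and 1621 and 1940 in wild type (-0.82, and -1.07 in B cells). Jund, a subunit of the transcription factor AP-1 and the only one of 31 immediate-early genes called, had 1968 and 2379 reads in knockout against 3109 and 3380 in wild type (-0.66, and -0.82 in B cells). The zinc finger gene 5830428H23Rik, now Zfp950, had 533 and 599 reads in knockout and 1046 and 1136 in wild type (-1.03, and -1.65 in B cells). The kinase gene Sbk1 was at -0.80. These differences were close to or under 2-fold except for Kcnf1, whose wild-type reads came from 1 library. No gene of the autophagy (31 genes), NF-kB and ERK signalling (26) or cell cycle (20) list reached the authors' threshold with DESeq in the node, again without an unadjusted count.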

How the data were processed

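Total RNA of whole lymph nodes was enriched for polyadenylated RNA, per the labels' protocols. The submitters' processing notes name CASAVA 1.8, DESeq without a version, and the build GRCm38 (mm10). The alignment, counting, strand and annotation settings are not given in the sources used here.

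The signal columns hold normalised read counts, which the authors deposited as 1 mean per genotype. Also deposited by the authors is the log2 fold change of knockout over wild type; the value computed here from the means differed from it by rounding alone. The p-value and its adjusted form were deposited by the authors and come from DESeq, per the submitters' processing notes. No test was added: the table lists called genes only, its largest adjusted p is 0.0498, and the design's case for counts of all genes did not apply. The number of genes tested was derived from the relation of p, rank and adjusted p under Benjamini-Hochberg adjustment.

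Whole reads per library were recovered by a search, over size factors from 0.6 to 1.5, for steps that write each mean as whole reads of 2 libraries. The search was also run on simulated data with a narrower range of size factors, and the outcome is not given here. Reads of the shared node libraries recovered from the lymphoma tables were the same in 102 of 102 cases. Total depth per library is not known from these values. A genotype at 0 reads was given a bound from 3 reads over the group, and 1 to 3 reads a pooled ratio with a 95% exact (Clopper-Pearson) interval. Positions and transcripts came from GENCODE M21, in which all 105 genes were found, 9 of them under another symbol. Shared sequence was counted in 50-base words of the longest transcript.

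The genes compared and all 27 gene lists were chosen with earlier results of these data known, so a list's direction is no independent evidence. Lists were described by counts and medians. Of the lists not named in the report, that of natural killer genes held 1 called gene. Those of mast cells and basophils, vessels, stroma, skeletal muscle, skin, erythroid cells, SLAM receptors, heat shock and sex-linked genes held 0. By rule, library values are given for the 10 largest rises and falls with 50 or more mean reads in the higher group, the 3 smallest adjusted p per direction, up to 6 called members per list, genes also called in splenic cells, and constant regions. A gene of the table is not reported here. Alternatives were a stricter adjusted p, a minimum fold or mean, 1 added to both means, leaving out each library, and leaving out segments and unnamed genes. Python 3.11.15, numpy 2.4.6, scipy 1.17.1, pandas 2.3.3 and matplotlib 3.10.9 were used.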

Additional observations from a re-analysis of the deposited data

Results flagged for a closer look

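In 2 genes the direction in the node was opposite to that in splenic cells of the same genotypes. Mnda was at -2.27 (log2) in lymph node and 1.66 in splenic B cells. Fam84b was at 1.12 in lymph node and -0.99 in splenic T cells. In both genes every knockout library lay on one side of the wild-type libraries in the node and on the other side in the splenic cells. Such separation is favoured by the calls themselves, and the difference between the tissues was not tested.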

How the results depend on the processing

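With 1 library left out the fold of 13 of 78 genes with finite values moved by over 1.5 times. Without segments, predicted genes and unnamed cDNAs 62 genes were left, 22 higher and 40 lower. With a mean of at least 50 normalised reads over both genotypes, which leaves out low genes, the median of the neutrophil genes was 4.25 in place of 4.65 and that of all called genes was -0.80 in place of -0.88. With each library left out in turn, the median of the strain and substrain list ran from -2.16 to -0.89. It was the value of Erdr1, or of Serinc3 without knockout library 2. The median of heavy chain variable segments ran from -5.23 to -4.56. With all libraries it lay between the bounds of Ighv5-16 and Ighv1-78, both at 0 reads in knockout. Leaving out a knockout library changes these bounds themselves. At an adjusted p under 0.01 82 genes were left, and at a difference of at least 2-fold 88. No paired analysis was possible because the deposited means and the recovered libraries carry no replicate numbers. A fit with other size factors or another filter was not run because the table lists only called genes. With 2 libraries a genotype, and 0 to 20 reads in the lower one for many genes, the size of the largest folds is set by few reads.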
